A study of Mus musculus with 6 samples.

Results

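Membrane traffic genes code for the proteins that form, move, tether and fuse the vesicles of a cell, and their messenger RNAs were examined here as targets of miRNAs held in AGO2. They were chosen by symbol: the small GTPases of the Rab, Arf and Arl families, and the Vps (vacuolar protein sorting), Snx (sorting nexin), Stx and Vamp (SNARE) and Sec families. To these came the subunits of the adaptor complexes (Ap1 to Ap4), and Plekhm1, which was named in the rule with its values already known. The rule found 75 of the 3200 genes with a hybrid, or 2.34%, and 286 of 15680 hybrid reads, or 1.82%. It reads names, so it also took in Sec61g, Sec62 and Sec63, which serve protein entry into the endoplasmic reticulum, and Sec11a, a signal peptidase subunit. Also taken in were Rab3gap1, Rab3ip, Rab11fip1, Rab11fip2, Rab11fip4, Arl6ip1, Arl6ip5 and Arl14ep. These are not small GTPases themselves, but they are counted in the Rab or Arf and Arl groups below.

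The reads came from AGO2 CLASH, in which a miRNA and the messenger RNA fragment cross-linked to the same AGO2 are ligated into a hybrid that names both. The material was P19, a mouse embryonic carcinoma cell line, as 3 libraries of WT cells (Dicer +/+) and 3 of HM cells (Dicer HM/-). In HM cells 1 Dicer1 allele carries a missense change at a tumor hotspot of the RNase IIIb domain and the other a frameshift that abolishes function, and this line was made from a single heterozygous knockout clone, so that differences from WT cells cannot be told apart from differences between clones. No heterozygous CLASH library was analysed here. Libraries were biological replicates by their titles, with no word on separate cultures, so p-values measure only the spread between these samples.

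Dicer frees both strands of a miRNA hairpin. Its RNase IIIb domain cuts the 5p arm and its RNase IIIa domain the 3p arm, and the strand kept by AGO2 is the guide while the discarded strand is the passenger. A guide finds its targets mostly through the seed, bases 2 to 8 from its 5′ end, which pairs with sites in 3′ UTRs. The Rab and Arf GTPases are switches that recruit coats, motors and tethers to a membrane, sorting nexins and Vps proteins sort cargo at endosomes, SNAREs drive fusion, and Plekhm1 joins Rab7 on late endosomes and autophagosomes to the machinery that fuses them with lysosomes.

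The 58 miRNAs that reached these genes had 40 different seeds, but 5 seeds held 215 of the 286 reads (75.2%). The sequences below are RefSeq mature miRNAs (GRCm38.p6) with the seed in capitals, chosen because these strands held most of the member reads or led at a site described later. miR-302b-3p, miR-302d-3p and miR-367-3p lie in 1 cluster on the plus strand, at chr3:127545275-127545297, chr3:127545665-127545687 and chr3:127545779-127545800. The strands miR-302a-3p, miR-302b-3p and miR-302d-3p, called the miR-302 strands below, share AAGUGCU, miR-367-3p and miR-25-3p share AUUGCAC, and the 5p strands of the miR-17 group share AAAGUGC.
miR-302b-3p: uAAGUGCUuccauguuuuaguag
miR-302d-3p: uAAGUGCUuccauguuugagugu
miR-367-3p: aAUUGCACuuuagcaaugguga
miR-25-3p: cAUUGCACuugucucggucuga
miR-20b-5p: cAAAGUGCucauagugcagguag
miR-93-5p: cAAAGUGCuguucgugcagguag
miR-19b-3p: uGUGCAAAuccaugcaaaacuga
miR-301a-3p: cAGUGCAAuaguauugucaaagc
miR-182-5p: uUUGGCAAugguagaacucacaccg

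The fragments to which these strands were joined are shown for the leading sites, where a site is a set of fragments of 1 gene that share 12 bases. Capitals mark the 7 bases that face the seed of the strand with most reads there, in the alignment with most pairs. Each is a fragment of a 3′ UTR as deposited, written 5′ to 3′.
Plekhm1, leading site of the miR-302 strands: ttgagttcatAGCATTTcttg
Plekhm1, site of miR-25-3p and miR-367-3p: tgaagcttgaattGTGCAATaaa
Rab1a, site of the miR-302 strands: taataaatatTGTACTTattg
Rab6a, site of the miR-302 strands: gtgaaattatAGCAGTTatcc
Rab5b, site of the miR-17 group: tgcagtttGCACTTTaattgatggtagtt
Rab23, site of miR-367-3p: cagaggtactcGTGCAATatccg
Snx17, site of miR-19b-3p: tttagtTTTGCACaaagtccaagagactgt
Arf4, site of miR-182-5p: gtatttatttctaccctTTGCCAAaaagat
Arl4c, site of the miR-302 strands: tttcttaAGCACTTtgacattttggta

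Depth was 1621 to 2331 hybrid reads per WT library and 1661 to 5341 per HM library. A count of 0 allows up to 3 reads, or 0.0562% to 0.185% of a library, and such floors and all intervals below cover counting error only. The cell type label was checked on miRNAs: 11 of 11 strands known from pluripotent cells were present, at 33.1% to 36.2% of hybrids in WT and 55.9% to 57.9% in HM libraries, and 1 of 8 strands typical of neural, muscle, liver, blood or mesenchymal cells was present, with 1 read.

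Traffic genes were thinly covered, as were other targets. The median gene had 2 reads in both sets, and 38.7% of members and 41.0% of other genes had 1 read. At least 10 reads were reached by 5 members (6.67%) and 339 other genes (10.8%). Plekhm1 led with 33 reads, 11.5% of all member reads, and ranked 57 among all genes. It was followed by Rab1a with 14, Arl4c and Rab6a with 13 each and Rab5b with 10 reads. Reads of 18 members were found in WT libraries only, of 25 in HM libraries only and of 32 in both. These were 24% (WT only), 33.3% (HM only) and 42.7% (both) of the members, against 22.1%, 39.1% and 38.8% of other genes. Counted per library there were 285 hybrid sequences, 284 of them with 1 read in that library and 281 distinct over all libraries. A fragment sharing 16 bases with another gene was held by 4 of the 285.

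The members were joined by 58 of the 298 miRNAs, in 182 miRNA-gene pairs. Of these pairs 139 had 1 read and 1 had at least 10. miR-302b-3p came first with 59 reads on 22 genes, 20.6% of member reads against 15.6% of the reads of all other genes. It was followed by miR-367-3p with 33 reads on 18 genes, miR-302a-3p with 26 reads on 11, miR-302d-3p with 20 reads on 11, miR-20b-5p with 14 reads on 10 and miR-19b-3p with 11 reads on 5. miR-93-5p had 8 reads, and miR-130a-3p and miR-292a-3p had 7 each, spread over 7 genes apiece.

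The question whether the mutation changed how much of the AGO2-bound material lay on traffic genes was asked with their share of each library. The share was 1.45%, 2.10% and 1.36% in WT libraries, against 2.41%, 1.65% and 2.11% in HM libraries. The libraries overlapped, with means of 1.64% ± 0.406 and 2.06% ± 0.383 (SD, n = 3 each) and a difference of 0.418 percentage points (two-sided exact permutation p = 0.2, where 3 against 3 libraries allow no value under 0.1). Exact 95% binomial intervals of single libraries ran from 0.852% to 3.26%. At 1621 reads per library, 20.3 ± 4.17 different members would be seen in WT and 21.5 ± 2.68 in HM libraries (SD, n = 3 each, two-sided exact permutation p = 0.8). Without Plekhm1, whose difference was known when the genes were chosen, the difference in share was 0.123 points (two-sided exact permutation p = 1), and with 1 library left out it lay between 0.242 and 0.651.

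The arms of these miRNAs differed between the genotypes. In WT libraries 13, 31 and 11 member reads came from 5p-miRNAs, or 46.4%, 63.3% and 50.0% of those with an arm in the name. In HM libraries 0, 5 and 1 did, or 0%, 5.75% and 1.69%. No HM library reached the lowest WT library, and the means were 53.2% ± 8.87 and 2.48% ± 2.95 (SD, n = 3 each), a difference of -50.8 percentage points (exact permutation test, two-sided, p = 0.1, the lowest that 3 against 3 libraries can give). Among all other genes the share was 53.9% ± 2.31 and 3.95% ± 0.360. Members minus other genes gave -0.716 ± 9.66 points in WT and -1.47 ± 3.29 in HM libraries (SD, n = 3 each, two-sided exact permutation p = 1), so no separate loss on traffic genes was seen. The 6 remaining 5p reads in HM libraries lay on Ap1g1 (2 reads), Rab10, Rab12, Sec11a and Snx16, and 3 of the 6 were from miR-20b-5p.

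**Figure D1:**
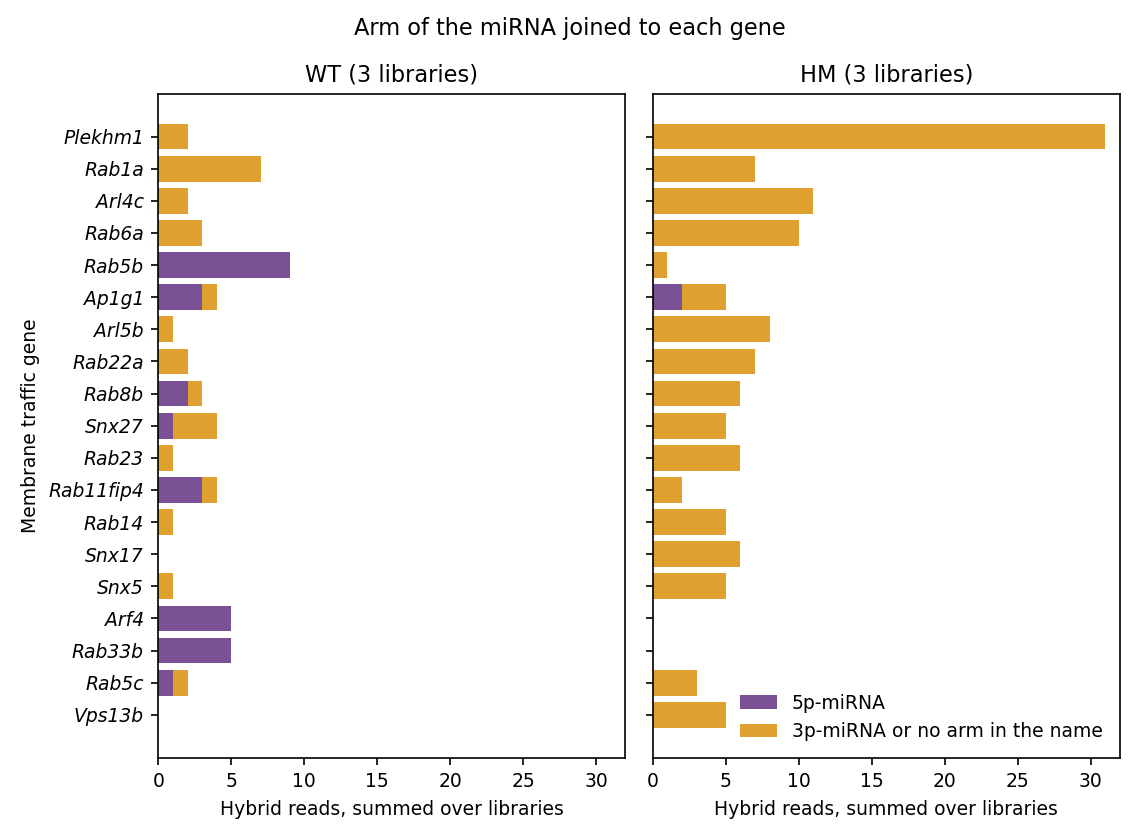
Hybrid reads of each traffic gene with at least 5 reads, summed over the 3 WT libraries (left) and the 3 HM libraries (right); the horizontal axis is the read count and colours give the arm of the miRNA. All WT reads of Rab5b, Arf4 and Rab33b came from 5p-miRNAs, and these genes had 1, 0 and 0 reads in HM cells, while Plekhm1 had 3p reads only, 2 in WT and 31 in HM.

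Whether a gene bound in WT cells was seen again in HM cells was counted by the arm that bound it. Of 21 members with 5p hybrids only, 9 (42.9%) had a read in HM libraries, against 44.6% of other genes. Of 21 members with 3p hybrids only, 17 (81.0%) did, against 72.3% of other genes. Depth differs between the genotypes, and these counts were not tested.

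Passenger strands of the 3p arm, by the classes of the study, were also followed on the members. They gave 2, 2 and 2 member reads in WT libraries against 5, 9 and 7 in HM libraries. As a share of 3p member hybrids this was 13.3%, 11.1% and 18.2% in WT against 12.5%, 10.98% and 12.1% in HM libraries. The groups overlapped at 14.2% ± 3.62 and 11.8% ± 0.786 (SD, n = 3 each, two-sided exact permutation p = 0.4). Across all other genes the same share went from 6.93% ± 0.774 to 15.7% ± 0.973 with no overlap (SD, n = 3 each, two-sided exact permutation p = 0.1). The list of classes is incomplete and leaves out miR-302a-3p. With all 3p strands outside it counted as passengers the difference on members turned to 0.957 points, and without Plekhm1 to 0.903.

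In all, 13 passenger strands reached 21 members, 6 of them in WT, 18 in HM and 3 in both. miR-292a-3p was joined to Arl4c, Arl5b, Plekhm1, Sec11a, Sec22c, Sec63 and Snx12 in 1 read each, 3 reads in WT against 4 in HM libraries. miR-20b-3p, seen on members in HM libraries only, was joined to Plekhm1, Rab1a, Rab22a and Snx27 in 1 read each. miR-17-3p was joined to Arl6ip1, Rab22a and Vps13a. No member had more than 3 passenger reads, and 12 of the 27 passenger reads (44.4%) held a seed match.

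Which seed groups supplied the member hybrids was compared for the 5 seeds with at least 10 member reads. The AAGUGCU seed of the miR-302 strands, miR-291a and miR-294 gave 9, 9 and 5 reads in WT against 16, 41 and 28 in HM libraries. Its share of member reads was 24.4% ± 7.04 in WT and 44.7% ± 4.08 in HM libraries (SD, n = 3 each, two-sided exact permutation p = 0.1, adjusted 0.125 over 5 seeds). On other genes it was 18.95% ± 0.0803 and 36.5% ± 1.19 (SD, n = 3 each). The members exceeded other genes in 5 of 6 libraries, by 6.80 ± 5.70 points (SD, n = 6, two-sided exact sign-flip permutation p = 0.0625, adjusted 0.104). Both comparisons include the reads of Plekhm1, which entered the rule with its values known. Without Plekhm1 the difference from other genes was 5.89 points (two-sided exact sign-flip permutation p = 0.0625). Of the members 33.3% had a hybrid with this seed, and of other genes 34.7%.

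The AUUGCAC seed of miR-367, miR-25 and miR-92 took a smaller part of the member hybrids than of the others. It gave 2, 3 and 2 member reads in WT against 9, 15 and 10 in HM libraries, or 7.45% ± 1.51 and 18.8% ± 3.18 of member reads (SD, n = 3 each). Other genes had 14.1% ± 2.10 and 25.1% ± 1.40. Members lay below other genes in 6 of 6 libraries, by -6.46 points on average (SD 3.62, n = 6, two-sided exact sign-flip permutation p = 0.03125, the smallest possible, adjusted 0.104 over 5 seeds). All 380 reads of Rabggtb, the gene with most reads in the table, carry this seed, and without it the difference was -4.68 points (two-sided exact sign-flip permutation p = 0.0625). Without Plekhm1, put in the rule with its values known, it was -8.75 points (two-sided exact sign-flip permutation p = 0.03125). By genes the order was the opposite, with 25.3% of members and 20.03% of other genes bound by this seed. The 5p seed AAAGUGC went on members from 29.96% ± 13.9 to 2.46% ± 2.92, and AGUGCAA of miR-130 and miR-301 went from 1 read in WT to 18 in HM libraries, or 0.680% ± 1.18 and 10.2% ± 2.27 (SD, n = 3 each, two-sided exact permutation p = 0.1 for both, adjusted 0.125). On other genes AAAGUGC made up 32.7% and 1.70% and AGUGCAA 3.88% and 5.61%. GUGCAAA of miR-19 gave 1 member read in WT and 10 in HM libraries, with a share below that on other genes in 5 of 6 libraries (by -2.03 ± 2.17 points, SD, n = 6, two-sided exact sign-flip permutation p = 0.0625, adjusted 0.104).

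**Figure D2:**
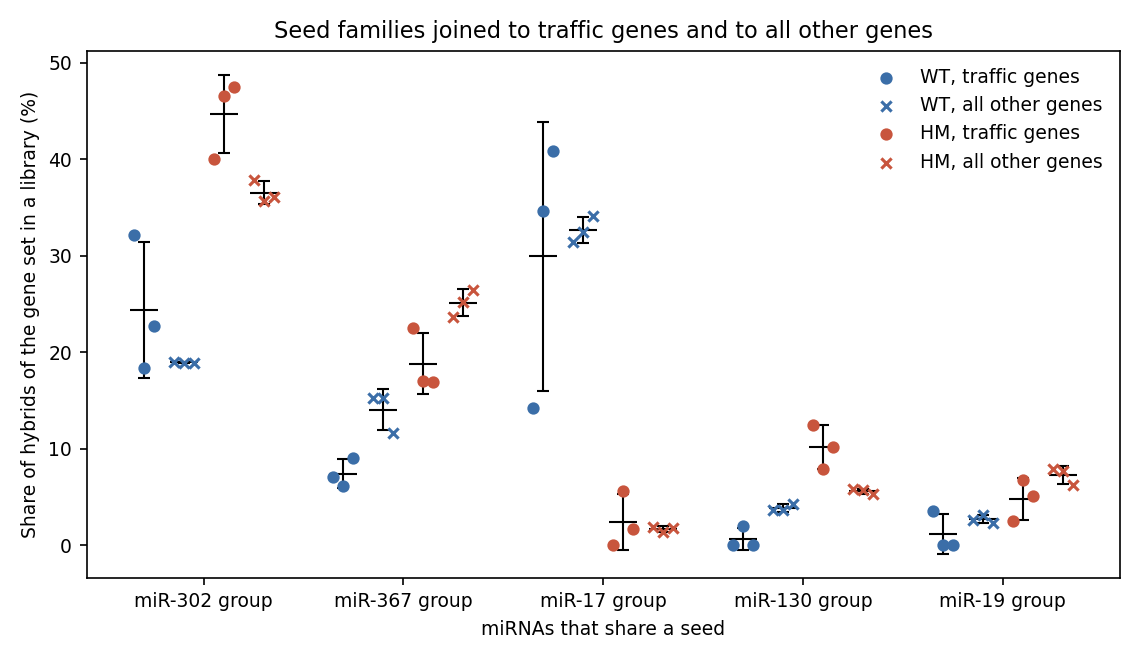
Share of hybrids (vertical axis, percent of the hybrids of the gene set in a library) from each of 5 seed groups, for traffic genes (circles) and all other genes (crosses), 1 point per library, with bars at the mean ± SD of 3 libraries. The miR-367 group (seed AUUGCAC) lay lower on traffic genes than on other genes in all 6 libraries, and the miR-302 group higher in 5 of 6.

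Single miRNAs were compared between members and other genes within the same libraries by edgeR. Of 94 miRNAs tested 1 was called (1.06%). miR-182-5p was higher on members (log2 ratio 3.85, SE 0.94, edgeR adjusted p = 0.00506), with 6 member reads, 5 of them on Arf4 and 1 on Stx16, against 22 reads on all other genes. It had 3, 3 and 0 member reads in WT libraries against 0 in every HM library, and without Arf4 the log2 ratio was 1.33 with no call (edgeR adjusted p = 0.776). Genes are not replicates, so this call describes Arf4. Leaving out WT library 1 (log2 ratio 3.00, edgeR adjusted p = 0.827) or WT library 2 (4.07, edgeR adjusted p = 0.309) also ended it. The miRNAs with most member reads did not pass, with log2 ratios of 0.36 for miR-302b-3p, 0.56 for miR-302a-3p and -0.37 for miR-367-3p (edgeR adjusted p = 0.799 for each). miR-92a-3p had 2 member reads among 550 in all, a log2 ratio of -2.34 (SE 0.76, edgeR adjusted p = 0.105).

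Which genes gained or lost hybrids was tested over all targets with at least 10 reads, scaled to all hybrids of a library. Of 344 genes tested 57 were called (16.6%), 20 higher (5.81%) and 37 lower (10.8%) in HM cells. Of the 5 members that passed the minimum 1 was called higher, Plekhm1, and 1 lower, Rab5b. WT and HM libraries were fully apart for 106 of the 344 genes (30.8%) and for 3 of the 5 members, Plekhm1, Arl4c and Rab5b. All genes tested had a median log2 fold change of 0.27, and the 4 tested members other than Plekhm1 one of 0.13. In these bulk libraries more transcripts of a gene and more AGO2 on each transcript cannot be told apart.

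Plekhm1 had 2, 0 and 0 reads in WT against 7, 17 and 7 in HM libraries. All 3 HM libraries lay above all 3 WT libraries, at 3.16 against 0.340 reads per 1000 hybrids, a ratio of 9.30 with an exact 95% interval of 2.37 to 80.2. The log2 fold change was 3.06 (SE 0.85, edgeR adjusted p = 0.00549), and since the gene was put in the rule with this difference known, this call is a description. Every read came from a 3p strand, and relative to 3p hybrids alone the log2 fold change was 2.08 (SE 0.91, edgeR adjusted p = 0.240), which did not pass. DESeq2 did not call it either (log2 fold change 3.24, DESeq2 adjusted p = 0.103), nor did the fit without WT library 2 (2.40, edgeR adjusted p = 0.0678), over alternatives with adjusted p from 0.000848 to 0.103. Without WT library 1, where its only WT reads lay, the log2 fold change was 6.15, a value that depends on the zeros in the other WT libraries.

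The 33 reads of Plekhm1 came from 8 miRNAs, led by miR-302b-3p with 13, miR-367-3p with 6 and miR-25-3p with 5. They fell mainly on 3 sites. The leading site had 12 reads, all in HM libraries (2, 6 and 4), 11 from the miR-302 strands and 1 from miR-294-3p of the same seed, and its fragment pairs with the seed at 6 bases plus 1 G:U pair. The site of miR-25-3p and miR-367-3p had 1, 0 and 0 WT and 4, 3 and 2 HM reads, with all 7 seed bases paired. The remaining one had 5 reads of miR-302b-3p in HM libraries 2 and 3, with 4 seed bases paired. The pair of miR-302b-3p and Plekhm1 was the 1 member pair among 140 pairs tested, of which 22 were called (15.7%), 3 of them higher (2.14%). It had 0, 0 and 0 reads in WT against 0, 9 and 4 in HM libraries and was not called (log2 fold change 4.48, edgeR adjusted p = 0.155, relative to 3p hybrids), though it was with totals of all hybrids (edgeR adjusted p = 0.0247).

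Rab5b, a GTPase of early endosomes, was the member called lower. It had 1, 6 and 2 reads in WT libraries, all from 5p strands, and 0, 1 and 0 in HM libraries. WT and HM libraries were apart, and HM cells had 0.0667 of the WT reads per hybrid (exact 95% interval 0.00152 to 0.481). The log2 fold change was -3.39 (SE 1.18, edgeR adjusted p = 0.0292). Its leading site had 7 reads, in WT libraries only (1, 4 and 2), from miR-20b-5p, miR-93-5p, miR-106a-5p and miR-17-5p, and all 7 seed bases are paired. The 1 HM read was from the passenger miR-293-3p. The call was lost with no minimum of reads (log2 fold change -3.39, edgeR adjusted p = 0.207), without HM library 1 (-3.23, 0.0576) and without HM library 3 (-3.04, 0.0918), and Rab5b fell under 10 reads without any 1 of WT libraries 1, 2 and 3 or HM library 2.

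**Figure D3:**
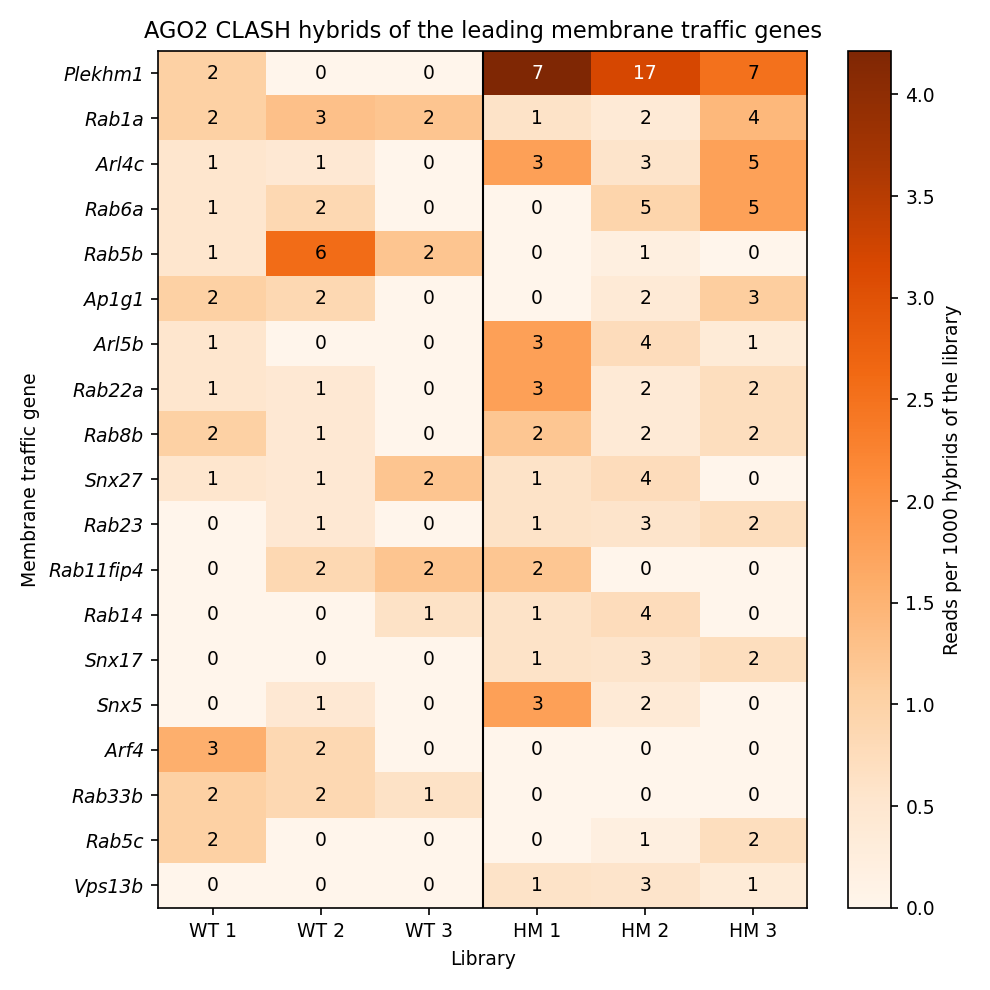
Reads of the 19 traffic genes with at least 5 reads in each library (numbers in the cells); colour gives reads per 1000 hybrids of that library, and the vertical line parts WT from HM. Plekhm1 was higher in all 3 HM libraries and Rab5b lower, while Rab1a had reads in all 6.

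The other tested members did not pass. Rab1a, which acts between the endoplasmic reticulum and the Golgi, had 2, 3 and 2 reads in WT against 1, 2 and 4 in HM libraries (log2 fold change -0.68, SE 0.87, edgeR adjusted p = 0.652). Its 13-read site of the miR-302 strands was seen in all 6 libraries, although 5 seed bases are paired, 1 forms a G:U pair and 1 is unpaired. miR-302d-3p held 6 of the WT reads of Rab1a and 1 of its HM reads, and miR-302b-3p held 1 and 4.

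Arl4c, an Arf-like GTPase of the plasma membrane, had 1, 1 and 0 reads in WT against 3, 3 and 5 in HM libraries, with no overlap per hybrid (log2 fold change 1.64, SE 1.07, edgeR adjusted p = 0.357). Its 13 reads came from 9 miRNAs, and its 5-read site pairs fully with the seed of the miR-302 strands. Rab6a, a GTPase of the Golgi, had 1, 2 and 0 and then 0, 5 and 5 reads (log2 fold change 0.94, SE 1.00, edgeR adjusted p = 0.571), and all of them came from miR-302a-3p, miR-302b-3p and miR-302d-3p. Scaled to 3p hybrids its value was -0.050. In the fit on 3p hybrids alone 5 of 262 genes were called (1.91%), and of 4 members tested 0 were, with 2 at an unadjusted p under 0.05, against 43 of the 262 genes (16.4%), and 0 called by DESeq2. The 2 were Plekhm1 and Rab1a (log2 fold change -1.71, edgeR adjusted p = 0.279).

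The remaining Rab genes had too few reads to test. Rab8b, Rab22a, Rab14 and Rab23 had 3, 2, 1 and 1 reads in WT against 6, 7, 5 and 6 in HM libraries, all ratios with intervals that include 1. Rab23, known from Hedgehog signaling, had 6 of its 7 reads from miR-367-3p. Rab33b, a Golgi GTPase also tied to autophagy, had 2, 2 and 1 reads in WT and 0 in every HM library. Per hybrid the WT reads were 2.78-fold a floor of 3 reads over the HM libraries. This takes the WT count as exact and is not a lower limit. All 5 reads came from miR-93-5p, miR-106a-5p and miR-17-5p. Rab3gap1, part of a GTPase-activating complex for Rab3, had 4 reads, all in WT library 2. Together the 25 Rab genes had 12, 27 and 10 reads in WT against 13, 29 and 21 in HM libraries, 0.799% ± 0.311 and 0.692% ± 0.130 of hybrids (SD, n = 3 each, two-sided exact permutation p = 0.8). Of the WT reads 28 of 49 were from 5p strands, and of the HM reads 2 of 63.

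Among the 11 Arf and Arl genes, Arl5b of the trans-Golgi had 1 read in WT against 8 in HM libraries, a ratio of 4.80 (exact 95% interval 0.644 to 213). Arf4, a Golgi GTPase, had 3, 2 and 0 reads in WT and 0 in every HM library. Per hybrid the WT reads were 2.78-fold the floor over the HM libraries, with the WT count taken as exact. All its 5 reads were from miR-182-5p at 1 site, and in 4 of them the 7 seed bases were paired. Arf1, which recruits the COPI coat, had 1 read in each WT library and 1 in HM library 2. The group held 0.265% ± 0.146 of hybrids in WT and 0.357% ± 0.171 in HM libraries (SD, n = 3 each, two-sided exact permutation p = 0.6).

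Sorting nexins had 33 reads over 9 genes. Snx27, a cargo adaptor of the retromer pathway, had 1, 1 and 2 reads in WT against 1, 4 and 0 in HM libraries. Snx17, which recycles integrins and lipoprotein receptors, had 0 reads in every WT library and then 1, 3 and 2. Per hybrid the HM reads were 1.20-fold the floor of 3 reads over the WT libraries. This takes the HM count as exact and is not a lower limit. All 6 reads were from miR-19b-3p at 1 site with the 7 seed bases paired. Snx5 had 1 read in WT against 5 in HM libraries. The group held 0.174% ± 0.0716 and 0.269% ± 0.133 of hybrids (SD, n = 3 each, two-sided exact permutation p = 0.4).

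The 10 Vps genes had 0, 4 and 1 reads in WT against 2, 10 and 6 in HM libraries (two-sided exact permutation p = 0.2 for the share). Vps13b, a lipid transfer protein of the Golgi, and Vps37a, a subunit of ESCRT-I, had 5 and 4 reads, all in HM libraries and in each of them. Per hybrid these were 1.00-fold and 0.800-fold the floor of 3 reads over the WT libraries, with the HM counts taken as exact. Binding of both in WT cells at a like level is thus not excluded. The reads of Vps37a came from miR-301a-3p and miR-301b-3p. Ap1g1, the gamma subunit of the AP-1 clathrin adaptor, had 2, 2 and 0 and then 0, 2 and 3 reads from 7 miRNAs, and the 4 adaptor genes gave 5 WT and 7 HM reads. The 10 Sec genes had 6 WT and 11 HM reads and were led by Sec11a with 4 reads and by Sec24c, a cargo receptor of the COPII coat, and Sec63 with 3 each. The 5 SNARE genes had 6 WT and 5 HM reads, led by Stx6 and Vamp3 with 4 each, and all 6 WT reads were from 5p strands while none of the HM reads was.

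**Figure D4:**
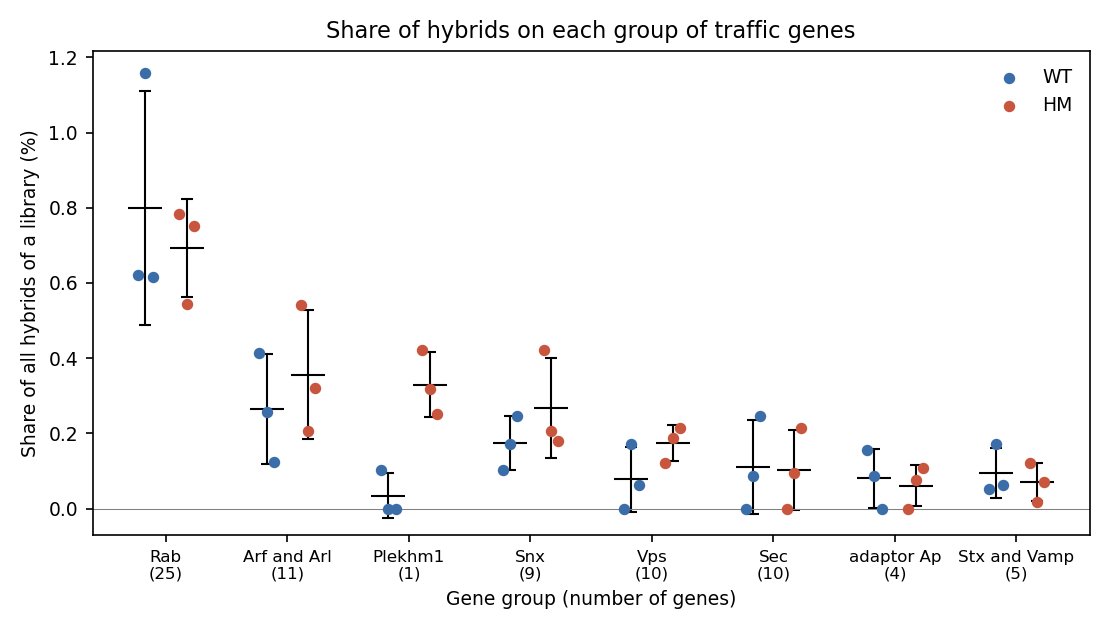
Share of all hybrids of a library (vertical axis, percent) on each group of traffic genes, with the number of genes in parentheses, 1 point per library and bars at the mean ± SD of 3 libraries. The genotypes overlapped in every group of more than 1 gene, and Plekhm1 lay higher in all 3 HM libraries.

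The other members had at most 6 reads each. Among them were Rab11fip4 with 6 reads, Rab5c with 5, Rab30 with 3, Rab5a, Rab7a, Rab11b, Rab18, Rab21 and Rab3ip with 2, and Rab2a, Rab6b, Rab11a, Rab11fip1 and Rab11fip2 with 1. Arl6ip1, Arl6ip5 and Arl14ep had 3 reads, Arf6 had 2, and Arf3, Arl3 and Arl5a had 1. Snx13 and Snx30 had 3, Snx10 had 2, and Snx33 had 1. Vps13a, Vps13d and Vps37b had 3 reads, and Vps13c, Vps25, Vps33a, Vps35 and Vps9d1 had 1. Sec16a, Sec23a, Sec23ip, Sec24a, Sec61g and Sec62 had 1 read, as did Ap1s1, Ap1s3, Ap2b1 and Vamp2.

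How the miRNAs sat on these fragments was compared through matches to seed bases 2 to 7, a feature the choice of genes did not use. A match was held by 57.1%, 51.0% and 50.0% of member fragments in WT against 62.5%, 46.6% and 47.5% in HM libraries. Other genes had 63.9% ± 3.31 in WT and 55.7% ± 1.45 in HM libraries (SD, n = 3 each). The members were lower in 5 of 6 libraries, by -7.33 ± 7.03 points (SD, n = 6, two-sided exact sign-flip permutation p = 0.0625). With matches to all 7 seed bases the difference was -3.82 ± 6.10 points, and with G:U pairs allowed it was 0.248 ± 6.68. Without Plekhm1 alone the difference for bases 2 to 7 was -6.21 points (two-sided exact sign-flip permutation p = 0.09375). Without Rab1a and Plekhm1, which hold the 2 sites with most reads, it was -2.76 points (two-sided exact sign-flip permutation p = 0.3125), an alternative chosen after seeing the data. The miRNAs with AAGUGCU had a match in 28.7% of member reads and 45.4% of other reads, those with AUUGCAC in 53.7% and 67.1%, and those with AAAGUGC in 77.8% and 77.9%. Fragments of members were 20 to 52 nt long with a median of 23 nt, and the median of others was 24 nt.

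**Figure D5:**
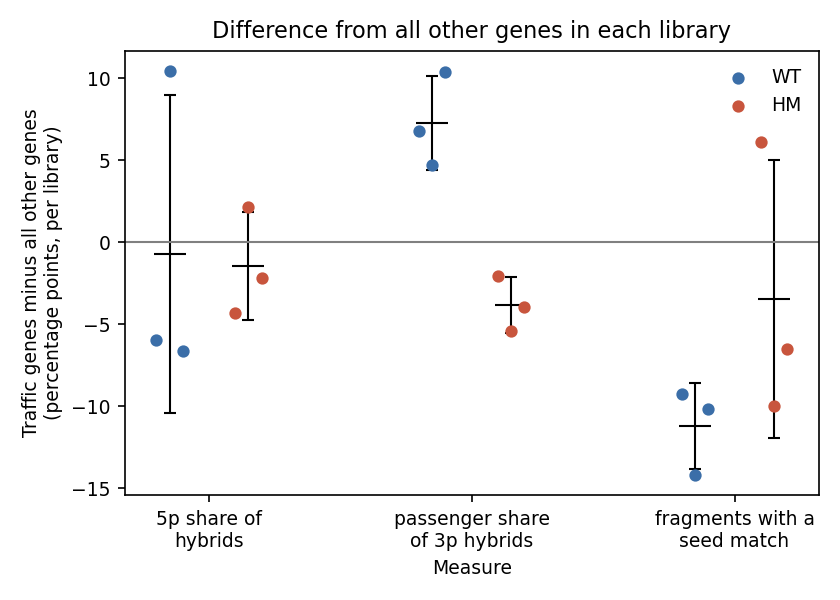
Traffic genes minus all other genes in each library, in percentage points (vertical axis), for the 5p share of hybrids, the passenger share of 3p hybrids and the share of fragments with a 6-nt seed match; points are libraries and bars the mean ± SD of 3. By the incomplete list of classes of the study, the passenger difference lay above 0 in all 3 WT and below 0 in all 3 HM libraries. The seed match difference lay below 0 in 5 of 6.

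Repeated sites were few. The 286 reads fell on 178 sites, and 20 sites in 16 genes had at least 3 reads and held 108 reads in all. A site needs 12 shared bases, so near-identical fragments with a mismatch, as in Ap1g1 and Snx27, were counted apart. Sites may thus be overcounted and repeats undercounted. Of the 20 sites with at least 3 reads, 10 paired with all 7 bases of the leading seed, 6 with 6 bases and 4 with fewer, not counting G:U pairs. More than 1 miRNA was joined to 13 of them, 3 were seen in WT libraries only and 9 in HM libraries only. Sites of other genes were not counted, and the HM libraries held more reads (9799 against 5881 in WT). The 3 and 9 therefore describe the members and show no gain of sites particular to them.

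Traffic genes whose symbols the rule does not match were listed as well, as coat, tether, SNARE, ESCRT and regulator genes. Of 177 listed, 55 had a hybrid, with 577 reads, or 197 without Rabggtb. In the fit over all genes 5 were tested, 1 was higher and 0 were lower. Rabggtb, the beta subunit of the enzyme that attaches lipid anchors to Rab proteins, had 37, 32 and 15 reads in WT against 45, 167 and 84 in HM libraries (log2 fold change 1.06, SE 0.26, edgeR adjusted p = 0.00128). This value is scaled to all hybrids, and no fit of Rabggtb relative to 3p hybrids is given here. All its reads carry the 3p seed AUUGCAC. That seed made up 14.1% of hybrids in WT and 25.1% in HM libraries on all genes outside the rule, Rabggtb among them. Gosr2, Kdelr2, Exoc5 and Tmed2 did not pass, with edgeR adjusted p from 0.368 to 0.953.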

How the data were processed

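AGO2 CLASH was carried out by the authors in 3 WT and 3 HM libraries of P19 cells. They named the miRNA of a hybrid with QuagmiR and aligned the target part with Bowtie2 to 3′ UTRs of mouse coding genes, and, per the methods, kept only interactions predicted by TargetScan. The submitters' processing notes name Bowtie. Versions, genome build, treatment of PCR duplicates and of fragments with several alignments were not given in the sources used here, so repeated reads may stem from 1 molecule. The deposited values are read counts per hybrid sequence, library, miRNA and gene, with no scaling by the authors. Mapping to 3′ UTRs leaves out fragments from elsewhere. Whether every deposited pair is a TargetScan prediction was not checked here, and many fragments hold no 6-nt seed match.

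Reads were summed per library, gene and miRNA. The members, gene lists and seed groups were chosen with earlier results of these data known. Guide and passenger classes came from the study and are incomplete. Genes named were the 20 members with most reads (ties kept), Plekhm1, the leading 2 of each family and every member called, with the 12 pairs and 10 miRNAs with most reads and each miRNA called. Other members are named after their values were seen, and 1 is not reported here. Of the symbols 74 matched RefSeq (GRCm38.p6) and 1 matched as a synonym, and 52 of 58 member miRNAs had a RefSeq mature sequence. Other seeds were the commonest start of the miRNA part of the deposited hybrids. A 6-nt match is the complement of seed bases 2 to 7 in the fragment.

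Features with at least 10 reads entered glmQLFTest of edgeR 4.0.16 (quasi-likelihood, run in R 4.3.3), with library totals as the scale and Benjamini-Hochberg adjustment at 0.05 over all features. Pairs and 3p genes used totals of 3p hybrids. The test of miRNA use had library as a block. SE is the log2 fold change divided by the root of the test's F. DESeq2 1.42.0, TMM, other totals, other minimums, sequences counted once, a replicate block and leaving out each library were alternatives. Shares were compared by exact permutation (Python 3.11.15, scipy 1.17.1, numpy 2.4.6, pandas 2.3.3) and plots drawn with matplotlib 3.10.9. Ratios of summed reads have exact conditional 95% intervals. The scripts were tested on simulated counts.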

Additional observations from a re-analysis of the deposited data

Results flagged for a closer look

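The passenger share of 3p hybrids differed from that of other genes in opposite directions in the genotypes. Members minus other genes gave 6.79, 4.68 and 10.4 percentage points in WT libraries, a mean of 7.27, and -2.06, -5.42 and -3.97 in HM libraries, a mean of -3.82. All 3 WT libraries lay above 0 and all 3 HM libraries below (exact permutation test of WT against HM, two-sided, p = 0.1, the lowest 3 against 3 libraries allow). The complete split depends on the incomplete list of classes, through HM library 3. In HM library 3 members had 7 passenger and 12 unclassed reads among 58 3p reads. Other genes there had 419 and 274 among 2612. With unclassed 3p strands counted as passengers, members would lie above other genes in that library. The sign would stay the same in every other library, above other genes in WT and below in HM libraries 1 and 2. In HM library 2 the gap would be small, with 9 passenger and 13 unclassed reads among 82 on members, against 825 and 539 among 5031. The WT values rest on 2 passenger reads in each library, 3 of miR-292a-3p, 2 of miR-302c-3p and 1 of miR-17-3p.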

How the results depend on the processing

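At this depth 70 of 75 members had under 10 reads and were not tested. No alternative run turned the direction of the difference between genotypes in the share of traffic genes or in their 5p share, of the AAGUGCU and AUUGCAC differences, or of Plekhm1, Rab5b, Arl4c and Rab1a over all hybrids. The 5p share of members minus other genes, HM minus WT, ranged from -3.70 to 4.82 points with 1 library left out, the passenger share difference from -3.91 to -0.374, and it turned to 0.903 without Plekhm1 and 0.957 with unclassed 3p strands as passengers. The seed match difference turned to 0.248 with G:U pairs allowed, and ranged from -10.02 to -5.96 with 1 library left out. The difference in members at equal depth ranged from -0.0949 (without WT library 1) to 3.57. The AUUGCAC difference ranged from -7.51 to -5.84 points with 1 library left out, where the smallest possible p is 0.0625.

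Of 2 members called, DESeq2 called 0 and gave Rab5b no adjusted p, 3p hybrid totals called 1 (Rab5b), and 1 (Plekhm1) was called with no minimum, with at least 30 reads (where no other member was tested) and with the replicate block. With 1 library left out 0 to 1 were called, 0 without WT library 2. With 3p totals Rab6a turned to -0.050. Among 3p hybrids 1 member, Plekhm1, was called with all hybrid totals (log2 fold change 3.06), and Rab6a turned to 0.26 with DESeq2, 0.35 with TMM and 0.94 with all hybrid totals, and ranged from -0.47 to 0.74 with 1 library left out. The member pair was called (1) with all hybrid totals, and could not be tested with at least 30 reads or without HM library 2 or 3. For miRNA use 0 were called with at least 30 reads, where miR-182-5p, with 28 reads in all, was not tested. Without Arf4 also 0 were called, and with 1 library left out 0 to 1. No pairing of libraries by replicate number was seen. Correlations of deviations were -0.055, -0.024 and -0.025 between same-numbered libraries, and from -0.053 to 0.075 between the others. With so few reads per gene these values cannot exclude a pairing. Under the replicate block Rab5b had an edgeR adjusted p of 0.0836. The causes were not tested. Leaving out Arf4, Rabggtb, or Rab1a with Plekhm1, grouping miRNAs by seed, the G:U match and all alternatives for seed groups and for members at equal depth were chosen after seeing the data.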
